A study of Mus musculus with 8 samples.

Results

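Tail bud and Cdx genes were examined in whole mouse embryos with and without a substitution in Smoothened, the membrane protein that passes on the Hedgehog signal. The 9 genes were Cdx1, Cdx2, Cdx4, T (brachyury), Nkx1-2, Gdf11, Lin28a, Lin28b and Hmga2, chosen by name for their part in axial extension and in the passage from trunk to tail. All 9 were found among the 41709 gene symbols of the table, and all 9 belonged to the 13596 genes kept for testing, those at 1 TPM or more in 4 or more embryos. The groups were 4 embryos homozygous for the K399A allele of Smo (mutant) and 4 embryos with wild-type Smo (WT), all at embryonic day 9.5 and all from matings of heterozygous parents. The allele is present in every tissue of the mutants. The litter of each embryo, the somite number, the strain and the sex are not named in the labels. TPM divides reads by gene length and then by the sum of these length-divided reads, so each value is a share of its library. Genes can be compared within an embryo, while a comparison between embryos also depends on the other genes of each library. Median-ratio scaling, used as an alternative setting, gave size factors from 0.914 (mutant 3) to 1.053 (mutant 2).

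In the vertebrate embryo the body axis is laid down from head to tail by progenitors in the tail bud, which feed the spinal cord and the paraxial mesoderm. T and Nkx1-2 mark these progenitors, and the caudal-type homeodomain factors of the Cdx family keep them going and activate Hox genes of the trunk. Gdf11, a ligand related to myostatin, ends trunk formation and brings on the tail Hox genes, while Lin28 proteins and Hmga2 belong to the heterochronic pathway, in which Lin28 blocks maturation of the let-7 microRNAs.

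The libraries were alike in depth, with 57.7 to 59.1 M whole reads each (M, mega) recovered from the steps of the TPM values, and differed in other ways. Mutants 3 and 4 were low in small nucleolar RNA host genes and in mt-Nd6. Snhg1, such a host gene, had 44.2 and 38.8 TPM in these libraries, against 110.0 to 147.4 TPM elsewhere. Other genes of this kind were lower in all 4 mutants than in any WT embryo, namely Snhg9 (5.17 to 8.19 TPM in mutants and 10.6 to 15.1 TPM in WT; limma adjusted p = 0.203), Epb41l4aos and Snhg8. The summed TPM of 20 yolk sac endoderm genes was 178 to 1557 in mutants and 38.3 to 310.5 in WT, highest in mutant 1, and that of 11 trophoblast and decidua genes was 33.9 to 343.8 in mutants and 17.5 to 41.7 in WT, highest in mutant 2. Tpbpa, a defining marker of the spongiotrophoblast, was at 0.0246 to 0.412 TPM in mutants and listed at 0 in all 4 WT embryos. Xist, transcribed from the inactive X, was at 22.4 to 91.9 TPM in mutants 2 and 4 and WT 1 and 3 while the other 4, at 0.00584 to 0.0239 TPM, had Y-linked transcripts, so that each genotype held 2 embryos of each kind.

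No gene of the set passed the comparison of mutant with WT. Limma, applied to log2(TPM + 1) with Benjamini-Hochberg adjustment over all tested genes, called 0 of the 9 at an adjusted p under 0.05, and 0 of 13596 genes in all (0%). Limma voom on the recovered reads called 0 of 12915 genes. An unadjusted p under 0.05 was reached by 1 of the 9, Gdf11, and by 1842 of all genes tested (13.5%), with 8.0% of all genes lower and 5.55% higher in mutants. The values of mutants and WT did not overlap for 1 of the 9, again Gdf11, against 7.46% of all genes tested (3.82% lower and 3.63% higher in mutants). Estimates lay below 0 (lower in mutants) for T, Gdf11 and Hmga2 and above 0 for the other 6, where 62.3% of all genes tested lay below 0 (41.3% without mutants 3 and 4). Without mutant 4 the estimate lay below 0 for 8 of the 9, without WT 4 for 6, and without mutants 3 and 4 for 7, while the side of Hmga2 turned with median-ratio scaling. Because whole embryos were sequenced, fewer cells of a type and less RNA per cell cannot be told apart.

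**Figure D1:**
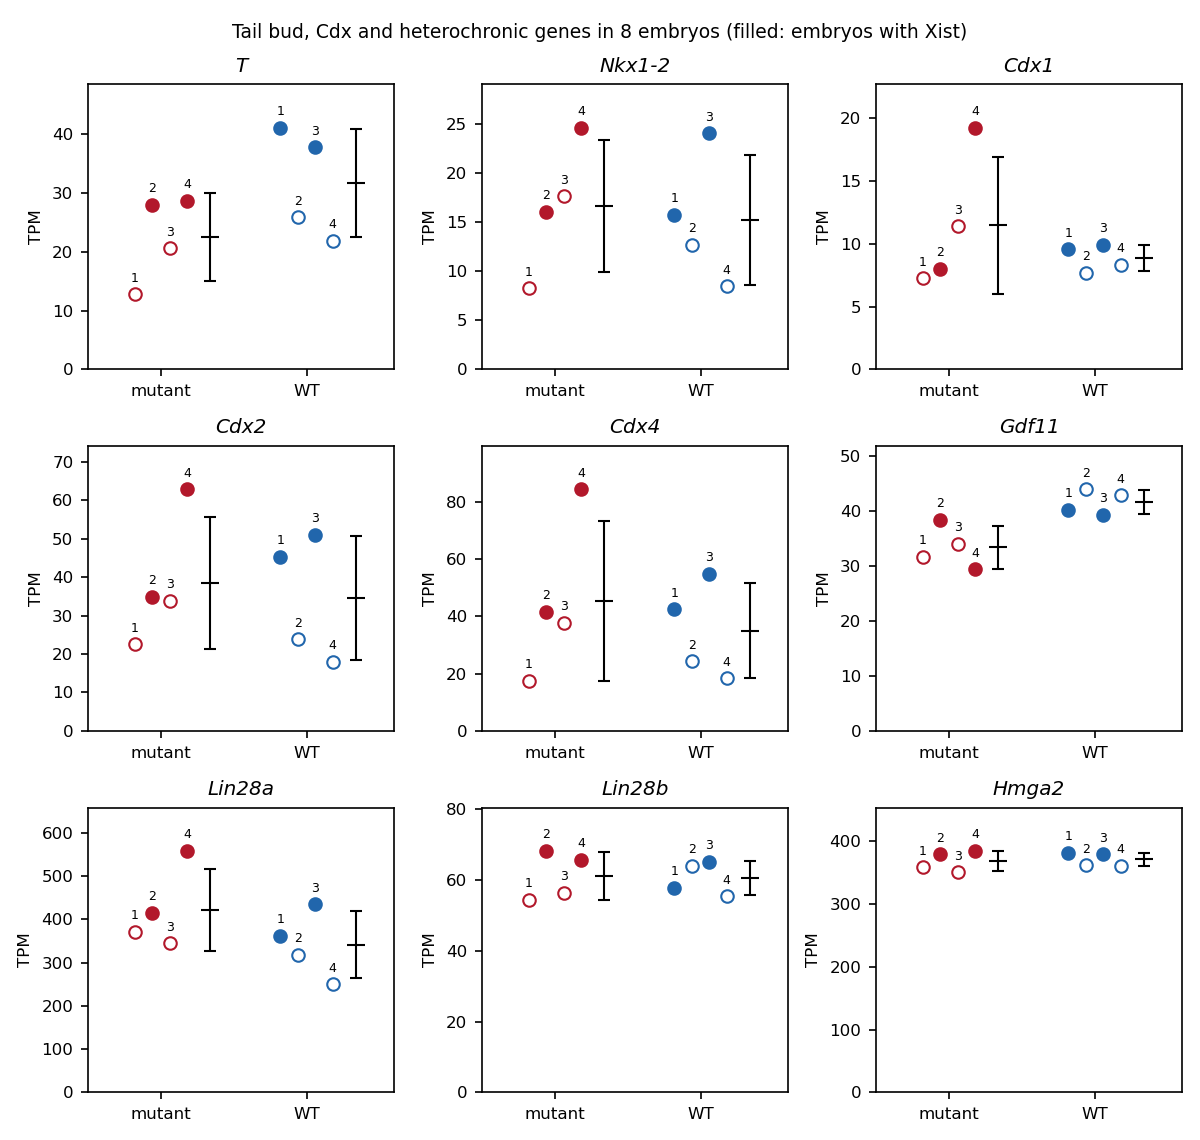
TPM (y axis, from 0) of each gene in 4 mutant (red) and 4 WT (blue) embryos, numbered by replicate, with filled symbols for embryos that had Xist transcripts and a bar with whiskers for the mean and SD (n = 4). Gdf11 is at 29.3 to 38.3 TPM in mutants and 39.2 to 43.8 TPM in WT, and the other 8 genes overlap between the genotypes.

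T, the T-box factor brachyury that posterior mesoderm and notochord need, was at 12.8, 28.0, 20.6 and 28.7 TPM in mutants 1 to 4 and at 41.1, 25.9, 37.8 and 21.9 TPM in WT 1 to 4. Mutants 2 and 4 lay within the WT range and mutants 1 and 3 below it, so the groups overlapped. The mean was 22.5 ± 7.45 TPM in mutants and 31.7 ± 9.21 TPM in WT (SD, n = 4 each). The log2 fold change of -0.49 ± 0.27 (SE) did not pass (limma adjusted p = 0.424; 95% confidence interval -1.10 to 0.12), and without mutant 1 it was -0.26. Among the 4 embryos with Xist, T was at 28.0 and 28.7 TPM in mutants and at 41.1 and 37.8 TPM in WT. Among the other 4 it was at 12.8 and 20.6 TPM in mutants and at 25.9 and 21.9 TPM in WT. Mutants thus lay below WT within both kinds of embryo, as for Gdf11 and for 6.41% of all genes tested, and 0 of the 9 genes lay above WT within both, against 5.71% of all genes. With a second term for Xist presence, added once the split had been seen, the log2 fold change of T stayed at -0.49 (limma adjusted p = 0.281). Because T itself follows that split, a smaller p in this fit is no support for a genotype difference.

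T lies on chromosome 17 (8434423 to 8442496, build GRCm38, plus strand). The 250 bases before its RefSeq start are shown with those of Cdx4 and Cdx2, since T and the Cdx genes are described together, with capitals for matches on either strand to a T-box core (AGGTGT), a CDX core (TTTAT) and a TCF/LEF core (CTTTGA). RefSeq entries in build GRCm38.p6 were found for 8 of the 9 genes. The T window is chr17:8434173-8434422 (plus strand), the Cdx4 window chrX:103321148-103321397 (plus strand) and the Cdx2 window chr5:147307250-147307499 (minus strand).
T: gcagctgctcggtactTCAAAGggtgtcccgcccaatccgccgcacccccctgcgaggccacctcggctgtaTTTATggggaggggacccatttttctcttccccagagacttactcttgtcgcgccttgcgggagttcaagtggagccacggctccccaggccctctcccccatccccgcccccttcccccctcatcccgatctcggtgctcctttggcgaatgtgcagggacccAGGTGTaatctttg
Cdx4: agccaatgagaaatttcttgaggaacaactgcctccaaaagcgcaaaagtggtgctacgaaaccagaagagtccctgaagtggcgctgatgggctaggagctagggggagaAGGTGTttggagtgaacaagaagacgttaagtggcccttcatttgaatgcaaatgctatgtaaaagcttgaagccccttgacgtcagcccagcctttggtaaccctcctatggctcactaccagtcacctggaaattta
Cdx2: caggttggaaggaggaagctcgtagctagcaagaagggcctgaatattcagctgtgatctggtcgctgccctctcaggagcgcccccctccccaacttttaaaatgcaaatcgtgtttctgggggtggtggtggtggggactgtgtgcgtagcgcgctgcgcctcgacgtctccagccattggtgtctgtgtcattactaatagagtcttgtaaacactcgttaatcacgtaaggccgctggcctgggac
The T window held 1 match to each motif, the T-box core starting at -14, the CDX core at -178 and the TCF/LEF core at -234, counted from -1 at the base before the start. The Cdx4 window held 1 T-box core, at -139, and the windows of Cdx2 and Nkx1-2 held none of the 3 motifs. Gdf11 had 1 CDX core, at -184, Lin28b 2 CDX cores, Lin28a 1 T-box core and 1 TCF/LEF core, and Hmga2 none. Among 32851 RefSeq promoter windows of that length, 11.8% held the T-box core, 37.3% the CDX core and 13.8% the TCF/LEF core, so single matches of this kind are common, and none shows that a factor binds there.

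Nkx1-2, a homeodomain factor of the tail bud and the adjoining preneural plate, was at 8.29, 16.1, 17.7 and 24.6 TPM in mutants 1 to 4 and at 15.8, 12.7, 24.1 and 8.46 TPM in WT 1 to 4. The ranges of the genotypes all but coincided. The estimate for Nkx1-2 was 0.12 ± 0.34 on the log2 scale (SE; limma adjusted p = 0.885; 95% confidence interval -0.65 to 0.89) and was -0.09 without mutant 4 and -0.11 without WT 4. Nkx1-2 shares 541 exon bases with Gm16764 on the opposite strand, and no source used here says whether counting used strand, so reads of such pairs cannot be told apart. Gm16764 was listed at 0 in 7 embryos and at 0.177 TPM in WT 1.

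Cdx2, the caudal factor that also builds trophectoderm and hindgut, was at 22.5, 34.8, 33.8 and 62.8 TPM in mutants 1 to 4, against 45.3, 23.8, 51.0 and 17.96 TPM in WT 1 to 4. Mutant 4 was the highest of the 8 embryos and WT 4 the lowest. For Cdx4, the X-linked member of the family, mutants 1 to 4 had 17.6, 41.7, 37.8 and 84.3 TPM and WT 1 to 4 had 42.5, 24.4, 54.9 and 18.4 TPM. Its lowest value was in mutant 1 and its highest in mutant 4, a ratio of 4.80 within 1 genotype. Values of Cdx1, which patterns the vertebrae together with Cdx2, were 7.25, 8.01, 11.4 and 19.2 TPM in mutants 1 to 4, against 9.59, 7.69, 9.92 and 8.32 TPM in WT 1 to 4. Mutants 3 and 4 lay above all WT embryos for Cdx1 and mutant 1 below all of them. In build GRCm38 Cdx2 lies on chromosome 5 (147300805 to 147307270), Cdx4 on chromosome X (103321398 to 103330592) and Cdx1 on chromosome 18 (61018862 to 61036199).

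The means of the 3 Cdx genes did not differ beyond the spread between embryos. Cdx1 averaged 11.5 ± 5.48 TPM in mutants and 8.88 ± 1.05 TPM in WT (SD, n = 4 each), a log2 fold change of 0.25 ± 0.25 (SE; limma adjusted p = 0.644). Cdx2 averaged 38.5 ± 17.2 TPM in mutants and 34.5 ± 16.1 TPM in WT, a log2 fold change of 0.18 ± 0.37 (adjusted p = 0.830). Cdx4 averaged 45.3 ± 28.1 TPM in mutants and 35.03 ± 16.7 TPM in WT, a log2 fold change of 0.28 ± 0.46 (adjusted p = 0.784; 95% confidence interval -0.74 to 1.31). Without mutants 3 and 4 these log2 fold changes were -0.19, -0.17 and -0.23, and without mutant 4 alone -0.02, -0.08 and -0.08, so the direction of each turned without mutant 4. The estimate for Cdx2 was also below 0, at -0.08, without WT 4. Mutant 4 had the smallest yolk sac sum of the mutants, 178 TPM, and a trophoblast sum of 33.9 TPM, within the WT range. The part of these tissues in the Cdx values of mutant 4 was not tested.

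**Figure D2:**
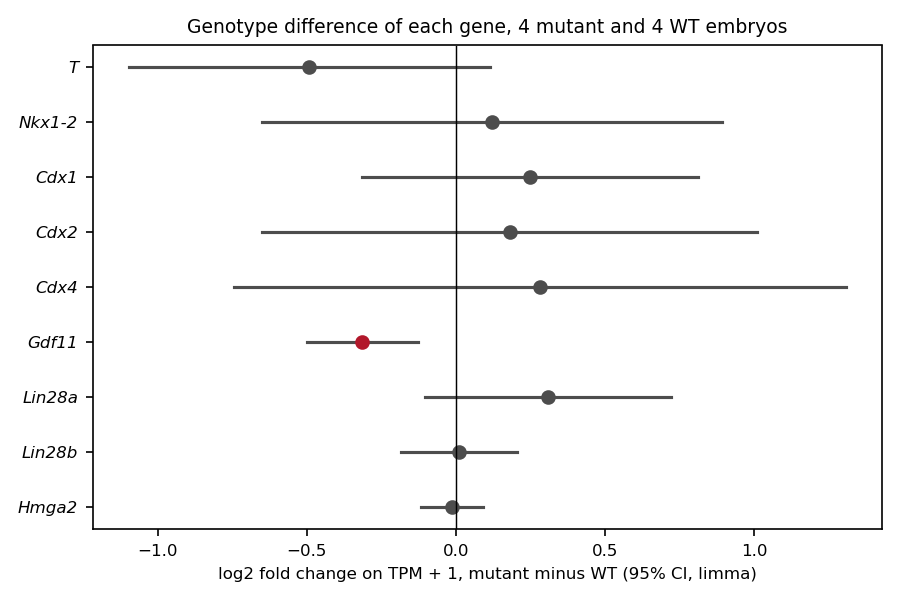
Log2 fold change on TPM + 1, mutant minus WT (x axis), of each gene with its 95% confidence interval from limma, 4 mutant and 4 WT embryos. The interval of Gdf11 (red, the gene without overlap between genotypes) runs from -0.50 to -0.13, and the intervals of the other 8 genes include 0.

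Cdx2, Cdx4 and Nkx1-2 varied together from embryo to embryo, in mutants and in WT alike. For Cdx2 the order from high to low was mutant 4, WT 3, WT 1, mutant 2, mutant 3, WT 2, mutant 1 and WT 4, and for Cdx4 only the last pair changed places. The ratio of Cdx4 to Cdx2 stayed between 0.781 and 1.34 in mutants and between 0.937 and 1.08 in WT, while each gene varied 3.497-fold (Cdx2) and 4.80-fold (Cdx4) over the 8 embryos. The ratio of Nkx1-2 to Cdx2 stayed between 0.369 and 0.523 in mutants and between 0.348 and 0.533 in WT. T did not keep such a fixed ratio. T over Cdx2 was 0.570, 0.804, 0.609 and 0.457 in mutants 1 to 4 and 0.907, 1.09, 0.741 and 1.22 in WT 1 to 4, where mutant 2 was the only mutant above the lowest WT embryo, WT 3. T over Nkx1-2 was 1.17 to 1.74 in mutants and 1.57 to 2.61 in WT. These ratios were chosen after the values were seen and are given without a test.

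**Figure D3:**
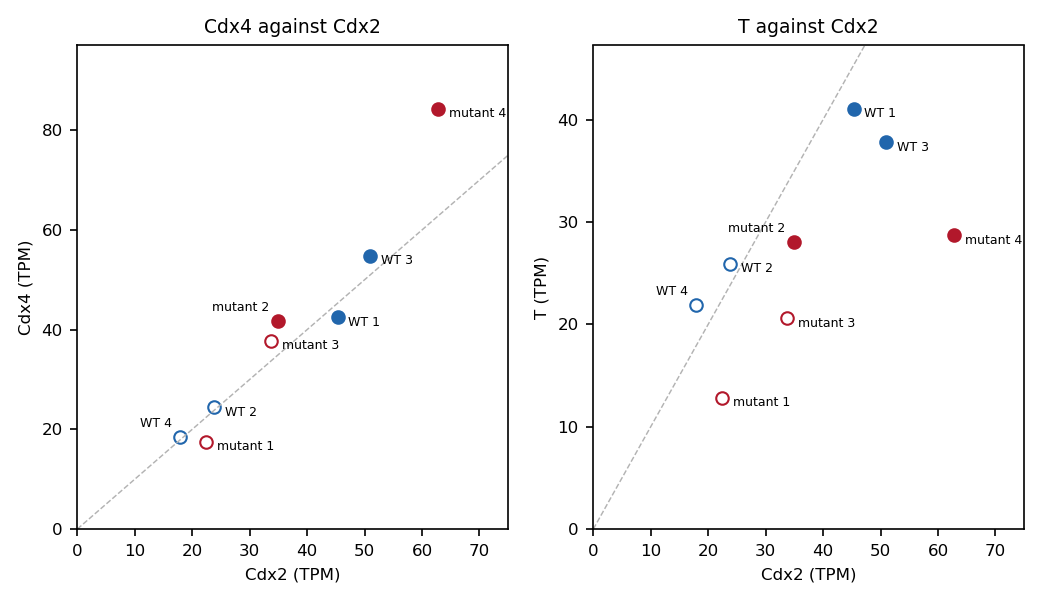
Cdx4 (left) and T (right) in TPM against Cdx2 in TPM, 1 point per embryo, with mutants in red, WT in blue, filled symbols for embryos with Xist and a dashed line where both genes are equal. Cdx4 lies near the line in all embryos but mutant 4, at 84.3 against 62.8 TPM, and T lies below the line in all 4 mutants and in WT 1 and 3.

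The 4 embryos with Xist were the 4 highest for Cdx2, Cdx4, T and Hmga2, and did not separate from the rest for the other 5 genes. Values of Cdx2 were 34.8 and 62.8 TPM in mutants 2 and 4 and 45.3 and 51.0 TPM in WT 1 and 3, against 22.5 and 33.8 TPM in mutants 1 and 3 and 23.8 and 17.96 TPM in WT 2 and 4. Of all genes tested, 1.38% were higher and 1.26% lower in every embryo with Xist than in any other. Cdx2 and Cdx4 vary together, and the split was made after seeing the data. Sex and any other property that these 4 embryos share cannot be told apart here.

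Gdf11 was the gene of the set with the smallest p and lay lower in every mutant than in any WT embryo. It was at 31.7, 38.3, 33.9 and 29.3 TPM in mutants 1 to 4 and at 40.2, 43.8, 39.2 and 42.8 TPM in WT 1 to 4. Mutant 2 came nearest to the WT range, just under WT 3. The mean was 33.3 ± 3.83 TPM in mutants and 41.5 ± 2.17 TPM in WT (SD, n = 4 each), and the log2 fold change of -0.31 ± 0.08 (SE) did not pass over all genes (limma adjusted p = 0.281; unadjusted p = 0.00403). The exact two-sided permutation p was 0.0286, the smallest that 4 embryos against 4 can give. The estimate ranged from -0.38 to -0.25 over 19 alternative settings, with adjusted p between 0.104 and 0.564, and was -0.25 without mutants 3 and 4. Mutant 4, highest for the 3 Cdx genes, was lowest for Gdf11. Gdf11 lies on chromosome 10 (128882295 to 128891718, minus strand), as do Lin28b (45376620 to 45486395) and Hmga2 (120361275 to 120476469).

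Of 20 genes of Gdf11 processing, reception and antagonism, 16 were tested, and limma called 0 of them. An unadjusted p under 0.05 was reached by 2 of 16, near the 13.5% of all genes tested. Estimates were above 0 for 10 and below 0 for 6, with a median log2 fold change of 0.01 against -0.045 for all genes tested. Without mutant 2 or WT 3 the number above 0 was 7. Furin, a convertase that cleaves precursors of the TGF-beta family, was at 23.9, 17.97, 19.99 and 20.6 TPM in mutants 1 to 4 and at 16.1, 17.4, 16.7 and 17.0 TPM in WT 1 to 4, without overlap (adjusted p = 0.299). Of all genes tested, 3.63% were likewise higher in every mutant than in any WT embryo. Fst encodes follistatin, which binds activins and Gdf11, and was at 19.95 ± 3.82 TPM in mutants and 15.1 ± 2.54 TPM in WT (SD, n = 4 each; limma adjusted p = 0.346). Isl1, a LIM homeodomain factor that acts downstream of Gdf11 in hindlimb positioning, was at 12.5 ± 3.10 TPM in mutants and 16.5 ± 3.603 TPM in WT (limma adjusted p = 0.413). Bmp1, a protease of the tolloid family that frees latent Gdf11, was at 15.7 ± 1.80 TPM in mutants and 17.5 ± 1.12 TPM in WT (limma adjusted p = 0.455). The receptors Acvr2a, Acvr2b and Tgfbr1 had estimates of -0.05, 0.11 and -0.01 (log2).

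Lin28a, the RNA-binding protein that blocks let-7 maturation, was at 371.6, 415.7, 345.1 and 558.5 TPM in mutants 1 to 4 and at 362.9, 318.4, 435.7 and 250.1 TPM in WT 1 to 4. As with Cdx2, the highest embryo was mutant 4 and the lowest WT 4. The mean was 422.7 ± 95.1 TPM in mutants and 341.8 ± 77.9 TPM in WT (SD, n = 4 each). The log2 fold change of 0.31 ± 0.18 (SE; limma adjusted p = 0.452; 95% confidence interval -0.10 to 0.72) was 0.17 without mutant 4 and 0.17 without WT 4. Its paralogue Lin28b was far steadier, at 54.4, 68.2, 56.5 and 65.7 TPM in mutants and 57.8, 64.0, 65.3 and 55.5 TPM in WT, a log2 fold change of 0.01 ± 0.09 (limma adjusted p = 0.964). Lin28a over Lin28b was therefore 6.09 to 8.496 in mutants and 4.50 to 6.67 in WT, ranges that overlap. Lin28a shares 234 exon bases with Gm13061 on the opposite strand, which was at 0.322 to 0.879 TPM.

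Hmga2, a chromatin protein that binds AT-rich DNA and is a textbook let-7 target, varied least of the 9 genes. It was at 358.5, 379.0, 350.6 and 384.6 TPM in mutants 1 to 4 and at 382.1, 362.2, 379.1 and 361.4 TPM in WT 1 to 4, a 1.10-fold span over 8 embryos. Its log2 fold change of -0.01 ± 0.05 had a 95% confidence interval of -0.12 to 0.09 (limma adjusted p = 0.915). For Lin28b the interval was -0.18 to 0.20. Hmga2 shares 140 exon bases with 1700006J14Rik on the opposite strand, which was at 0.0552 to 0.168 TPM.

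The let-7 microRNAs were not measured in these libraries, and their sequences are shown because Lin28a, Lin28b and Hmga2 all carry matches to their seed. Of 10 mature let-7 names in the RefSeq table, 9 share the seed GAGGUAG (bases 2 to 8, in capitals), among them let-7a-5p (chr13:48538239-48538260, minus strand) and let-7g-5p (chr9:106178846-106178867, plus strand) in build GRCm38.p6.
let-7a-5p: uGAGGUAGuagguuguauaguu
let-7g-5p: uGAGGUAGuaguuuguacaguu
The match in the 3′ UTR reads CTACCTC. It occurred 2 times in the longest principal transcript of Lin28a, 4 times in Lin28b, 4 times in Hmga2 and in none of T, Nkx1-2, Gdf11, Cdx1, Cdx2 and Cdx4. Among 20874 protein-coding genes of GENCODE M21, 8.54% had at least 1 such match, 1.03% at least 2 and 0.0575% at least 4. The first match of each gene after the stop codon is shown with its flanks and with the match in capitals, all on the minus strand of build GRCm38, at chr4:134005189-134005209 for Lin28a, chr10:45381022-45381042 for Lin28b and chr10:120364224-120364244 for Hmga2.
Lin28a: acagcctgttgaaCTACCTCa
Lin28b: ccgggcgggaagtCTACCTCa
Hmga2: cgacattcaatttCTACCTCa
A match to the seed is a description of the sequence and does not show repression. Over the 8 embryos Lin28a spanned 2.23-fold, Lin28b 1.25-fold and Hmga2 1.10-fold.

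Of 21 genes of the Lin28 and let-7 pathway found in the table, 0 were called by limma. An unadjusted p under 0.05 was reached by 3 of the 21, near the 13.5% of all genes tested. Estimates were above 0 for 15 and below 0 for 6 (median 0.045 on the log2 scale, and 0.009 without mutant 4). Nr6a1, a nuclear receptor of trunk formation with 8 seed matches in its 3′ UTR, was at 42.5, 49.4, 36.5 and 67.7 TPM in mutants 1 to 4 and at 33.4, 33.1, 46.7 and 25.1 TPM in WT 1 to 4, highest in mutant 4 and lowest in WT 4 (log2 fold change 0.49, adjusted p = 0.356). Ago2, the slicer Argonaute, was at 63.2 ± 3.73 TPM in mutants and 56.0 ± 3.05 TPM in WT (SD, n = 4 each; limma adjusted p = 0.317). Igf2bp1 and Igf2bp3, RNA-binding proteins of embryonic growth, had log2 fold changes of 0.16 and 0.10 (adjusted p = 0.363 and 0.402).

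By mean level, Lin28a, Hmga2 and Lin28b were the 3 highest genes in both genotypes. In mutants Lin28a and Hmga2 led and overlapped each other, and Hmga2 lay apart from Lin28b, at 350.6 to 384.6 TPM against 54.4 to 68.2 TPM. Cdx4, Cdx2 and Gdf11 came next in mutants, each overlapping its neighbour and Cdx4 overlapping Lin28b, and Gdf11 lay apart from T. In WT Hmga2 and Lin28a overlapped, Lin28b lay apart from Gdf11, and Gdf11, Cdx4, Cdx2, T and Nkx1-2 each overlapped the next. Cdx1 was the lowest gene of the set on average in both genotypes, and lay below Nkx1-2 in all 8 embryos. The lowest read number behind any value was 237, for Cdx1 in mutant 1, where counting alone gives an error of 6.50%. The coefficient of variation between embryos of 1 genotype was 2.94% to 4.40% for Hmga2 and 47.7% to 61.9% for Cdx4.

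The genes nearest to each member over the 8 embryos were found by the root mean square difference of log2(TPM + 1) after centring each gene. For Cdx2 these were Evx1 (0.197), a homeobox gene of the tail bud, Fgf3 (0.203) and Nkx1-2 (0.207), and for Nkx1-2 they were Fgf3 (0.205), Cdx2 (0.207) and Hoxb1 (0.225). Cdx4 was nearest to Hoxaas3 (0.188), a non-coding RNA of the HoxA cluster, Cdx2 (0.212) and Evx1 (0.252). T was nearest to Peli3 (0.155), Fgf17 (0.193), a tail bud growth factor, and Hoxb5os (0.208), and Cdx1 to Osr1 (0.103) and Tmem158 (0.164). Lin28a was nearest to Nr6a1 (0.117) and Cpn1 (0.123), and Gdf11 to Mir670hg (0.055), Tigd3 (0.055) and Stau2 (0.066). For Lin28b and Hmga2, which hardly varied, the distances were 0.028 to 0.033 (Rnf145, Irs2 and Zmat3) and 0.019 to 0.022 (Srsf2, Wdr55 and Pgam5), as for any steady gene. All distances rest on 8 embryos and are descriptions.

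**Figure D4:**
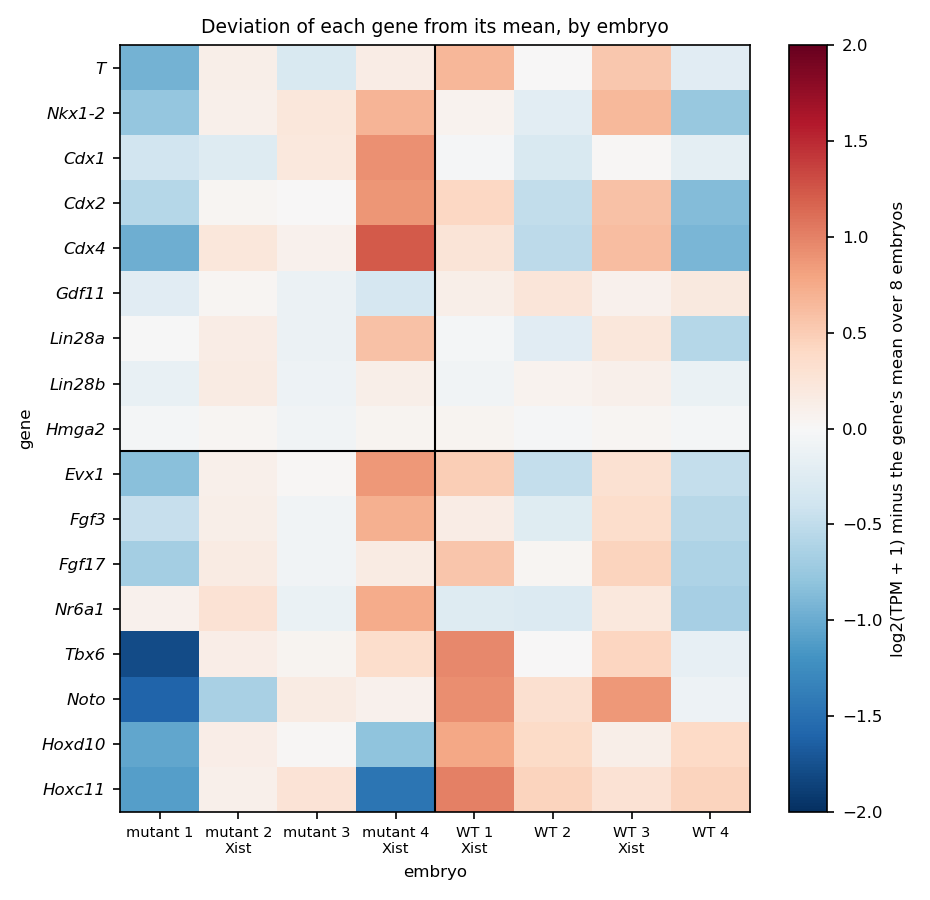
Deviation of log2(TPM + 1) from each gene's mean over 8 embryos (colour, red above and blue below), with mutants left and WT right, the 9 genes above the line and other genes named in the text below it. Cdx2, Cdx4, Nkx1-2, Evx1 and Fgf3 are highest in mutant 4, in which Hoxd10 and Hoxc11 are low.

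The tissues around the tail bud were followed with further lists, in each of which limma called 0 genes in either direction. An unadjusted p under 0.05 was reached by 1 of 16 tail bud genes, 1 of 13 presomitic genes, 5 of 15 trunk Hox genes and 5 of 9 tail Hox genes, against 13.5% of all genes tested. The tail bud gene was Fst, which the Gdf11 list also holds. Of 16 tested genes of tail bud and axial progenitors, 8 were above 0 and 8 below, with a median log2 fold change of -0.02. The number above 0 was 11 without mutant 1, 3 without mutant 4, 3 without WT 4 and 4 without mutants 3 and 4. Sp8 and Sp5, zinc finger factors downstream of Wnt in the tail, had log2 fold changes of -0.21 and 0.21 (adjusted p = 0.529 and 0.625), and Greb1 -0.18 (adjusted p = 0.661). Of 13 presomitic mesoderm genes 10 were below 0, with a median of -0.41, which was -0.15 without mutant 1 (8 below 0) and -0.65 without mutants 3 and 4. Lfng, a glycosyltransferase of the segmentation clock, was at 49.3 ± 10.8 TPM in mutants and 65.7 ± 11.3 TPM in WT (SD, n = 4 each; limma adjusted p = 0.328). Dll1, the Notch ligand of paraxial mesoderm, was at 30.5 ± 13.4 TPM in mutants and 43.9 ± 5.72 TPM in WT (limma adjusted p = 0.385), with 14.2 TPM in mutant 1. Dll3 and Ripply2 had log2 fold changes of -0.61 and -0.81 (adjusted p = 0.402 and 0.379).

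Estimates for the Hox genes, which Cdx factors and Gdf11 are known to regulate, lay below 0 with all 8 embryos. All 15 trunk Hox genes (paralogues 5 to 9) had estimates below 0, with a median log2 fold change of -0.34, and so had all 9 tested tail Hox genes (paralogues 10 to 13), with a median of -0.83, against -0.045 for all genes tested. Mutant 1 stood apart, its trunk Hox genes summing to 176.5 TPM, while the sums were 300.9 to 324.0 TPM in mutants 2 to 4 and 273.0 to 426.3 TPM in WT. The trunk Hox median was -0.21 without mutant 1 (14 of 15 below 0) and -0.52 without mutants 3 and 4, and the tail Hox median was -0.56 without mutant 1 and -0.55 without mutant 4 (8 of 9 below 0 in each). None of these genes was called, and Hox genes of a cluster are not independent. Hoxa6 was at 3.44 ± 1.94 TPM in mutants and 6.41 ± 1.59 TPM in WT (SD, n = 4 each; limma adjusted p = 0.304), and Hoxa9, Hoxb7 and Hoxb6 had log2 fold changes of -0.72, -0.36 and -0.31. Hoxd10, a regulator of lumbosacral identity, was at 7.07, 17.1, 15.9 and 8.53 TPM in mutants 1 to 4 and at 27.4, 20.5, 17.0 and 20.9 TPM in WT 1 to 4. Mutants 1 and 4 were the lowest of the 8. Mutant 4 had the most Cdx2 and Cdx4 and mutant 1 the least Cdx4, while WT 4, with the least Cdx2, had 20.9 TPM of Hoxd10. A relation between Cdx and Hoxd10 levels was not tested. Hoxc11 was at 2.78, 7.67, 8.80 and 1.95 TPM in mutants and at 15.2, 9.99, 8.9 and 10.1 TPM in WT, without overlap (adjusted p = 0.313). Such a separation, lower in mutants, held for 3.82% of all genes tested. Hoxd12 and Hoxa10 had log2 fold changes of -1.54 and -0.56 (adjusted p = 0.310 and 0.351).

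**Figure D5:**
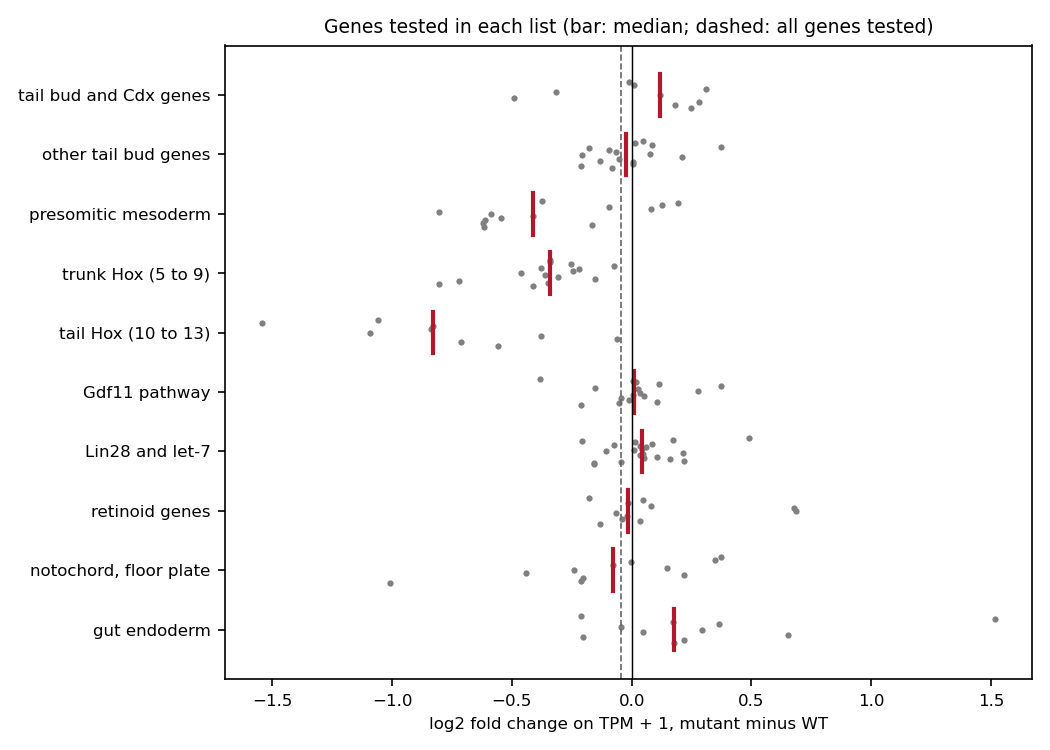
Log2 fold change on TPM + 1, mutant minus WT (x axis), of every tested gene (grey) in 10 gene lists, with the median of each list (red bar) and of all genes tested (dashed line). The medians of trunk Hox, presomitic mesoderm and tail Hox genes are -0.34, -0.41 and -0.83, and that of the tail bud and Cdx genes is 0.12.

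Markers of notochord, gut, yolk sac, trophoblast and decidua were compared in the same way, and limma called 0 of them. An unadjusted p under 0.05 was reached by 2 of 11 notochord and floor plate genes and 2 of 11 gut genes. It was reached by 20 of 20 yolk sac and 4 of 7 trophoblast and decidua genes, against 13.5% of all genes tested. Of 11 notochord and floor plate genes 7 were below 0 (63.6%), near the 62.3% of all genes tested. Their median was -0.08, against -0.045 for all genes tested. Without mutant 3 the notochord and floor plate median was 0.04, with 4 below 0. Noto, a homeobox gene of the node and caudal notochord, was at 0.0334, 0.995, 2.50 and 2.33 TPM in mutants 1 to 4 and at 4.99, 2.92, 4.71 and 1.93 TPM in WT 1 to 4 (limma adjusted p = 0.330), and its lowest value was in mutant 1, as for T. Foxj1, of ciliated node cells and floor plate, was at 4.92 ± 1.56 TPM in mutants and 6.83 ± 0.690 TPM in WT (SD, n = 4 each; limma adjusted p = 0.346). Krt18 and Krt8, keratins of notochord and other epithelia, had log2 fold changes of 0.37 and 0.35 (adjusted p = 0.371 and 0.425). Of 11 gut endoderm genes 8 were above 0, with a median of 0.18 (0.10 without mutant 1). Foxa3, a forkhead factor of the hindgut and liver bud, was at 2.05, 1.11, 1.21 and 1.83 TPM in mutants and at 0.366, 0.846, 0.756 and 0.489 TPM in WT, without overlap (adjusted p = 0.281). Such a separation, higher in mutants, held for 3.63% of all genes tested. Hnf4a, which the yolk sac list also holds, was at 3.96 ± 3.07 TPM in mutants and 0.565 ± 0.625 TPM in WT (limma adjusted p = 0.281). Cldn6 and Cdh1, of epithelial junctions, had log2 fold changes of 0.36 and 0.29 (adjusted p = 0.405 and 0.475). All 20 yolk sac endoderm genes and all 7 tested trophoblast and decidua genes were above 0, with medians of 2.21 (3.38 without mutants 3 and 4) and 0.68 (0.40 without mutant 2). The genotypes overlapped for all 20 and all 7, where 7.46% of all genes tested did not. The yolk sac sum of WT 3, 310.5 TPM, lay above those of mutants 3 and 4, 281.0 and 177.7 TPM. Genes of 1 tissue are not independent. The part of these tissues in the values of Cdx2 was not tested.

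Of 11 genes of retinoid signalling, which opposes the tail bud signals, limma called 0 and 0 had an unadjusted p under 0.05, with 5 above 0, 6 below and a median of -0.015, whose sign turned when some single embryos were left out. Cyp26c1 and Cyp26b1, which degrade retinoic acid, had log2 fold changes of 0.68 and 0.69 (adjusted p = 0.374 and 0.439), and Crabp2, a retinoic acid carrier, -0.18 (adjusted p = 0.415). Cyp26a1, the enzyme of this family in the tail bud, was at 29.9, 26.5, 24.1 and 22.6 TPM in mutants 1 to 4 and at 37.4, 24.0, 29.7 and 19.4 TPM in WT 1 to 4, and did not follow the high Cdx values of mutant 4. All 11 tested genes of the RNA quality list (small nucleolar RNA hosts, Malat1 and the mitochondrial gene mt-Nd6) were below 0, with a median of -0.59 (0 called by limma, 5 of 11 at an unadjusted p under 0.05). Without mutants 3 and 4 their median was -0.015, with 4 above 0 and 7 below.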

How the data were processed

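RNA was sequenced from 8 whole mouse embryos, 4 homozygous for a substitution in Smo and 4 WT, each frozen in its own tube, with a TruSeq RNA kit per the labels' protocols. The authors deposited TPM per gene symbol, and the build is GRCm38 (mm10) per the submitters' processing notes. No source used here gives the aligner, the counting program or the strandedness. All columns matched a sample by name, with 0 left over.

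Genes with at least 1 TPM in at least 4 embryos entered a limma fit (version 3.58.1, R version 4.3.3) of log2(TPM + 1) on genotype alone, with trended empirical Bayes moderation and Benjamini-Hochberg adjustment at 0.05. Fold changes on this scale understate changes of low genes. Single genes were also compared by exact two-sided permutation over 70 assignments. The fit was tested on simulated data. The p-values set the genotype difference against the spread between these embryos and take the embryos as independent. Nothing says that embryos of a genotype came from separate litters.

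Read numbers were recovered from the TPM steps with merged exon lengths of GENCODE M21: 97.70% of 22992 genes gave whole numbers in all libraries within 0.02 reads. Depths are sums over these genes, and counting errors cover counting only.

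The members and lists were chosen with earlier results of these data known. All 9 members are named, with up to 4 genes of smallest p per list and the 3 nearest genes of each member (leaving out Gm and Rik loci); other genes were named after their values were seen. Some genes named by this rule are not reported here. Alternatives covered pseudocounts, filters, scaling, array weights, trend, the replicate block and leaving out embryos. A fit without mutants 3 and 4, a term for Xist, limma voom on recovered reads and list values without single embryos were chosen after seeing the data.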

Additional observations from a re-analysis of the deposited data

Results flagged for a closer look

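A single embryo stood far from the other 3 of its genotype for 8 of 112 groups examined (gap to the nearest embryo, over the range of the genotype, above the critical value of Dixon for 4 values). None of them concerned the 9 tail bud and Cdx genes. Such a gap arises by chance in about 1 group in 20 for independent, normally distributed values. The rule was applied to TPM, and several flags are yolk sac genes of WT 3 that vary together, so that rate need not hold here. Lfng was at 65.5 TPM in mutant 2, against 43.2 to 45.0 TPM in the other mutants. Hoxb6 was at 13.8 TPM in mutant 1, against 18.1 to 18.5 TPM. Cdh1, the epithelial cadherin, was at 72.7 TPM in mutant 1, against 39.0 to 42.6 TPM. Prl8a2, of the decidua, was at 291.3 TPM in mutant 2, against 7.66 to 49.2 TPM. In WT 3 the yolk sac genes stood out, with Rbp4 at 41.4 TPM (3.36 to 8.10 TPM in the other WT embryos), Ttr at 37.4 TPM (0.764 to 3.86 TPM), Apob at 8.13 TPM (0.306 to 0.425 TPM) and Cubn at 5.06 TPM (0.189 to 0.706 TPM).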

How the results depend on the processing

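In each of 19 alternative settings limma called 0 of the 9 genes, and 1 of the 9, Gdf11, did not overlap between genotypes. For Gdf11 only median-ratio scaling and limma voom could have changed this. The other settings kept the TPM values or left embryos out, which cannot make separate groups overlap. Of 171 recomputed log2 fold changes of the members, 153 kept their direction. T, Gdf11 and Lin28a kept theirs throughout. The number of members lower in mutants was 2 to 8 when single embryos were left out and 7 without mutants 3 and 4. The count of called genes over the whole table was 0 to 1 when single embryos were left out (1 without mutant 2) and 3 without mutants 3 and 4, and 0 in the other settings. Leaving out single embryos gave log2 fold changes of -0.0159 to 0.4157 for Cdx1, -0.0816 to 0.40 for Cdx2, -0.0789 to 0.65 for Cdx4, -0.11 to 0.40 for Nkx1-2, -0.0437 to 0.0633 for Lin28b and -0.0336 to 0.0108 for Hmga2. Without mutants 3 and 4 they were -0.19 for Cdx1, -0.17 for Cdx2, -0.23 for Cdx4 and -0.28 for Nkx1-2. Median-ratio scaling gave 0.038 for Hmga2. The causes were not tested. With the replicate number as a block 0 members and 0 genes were called. Deviations of mutant and WT embryos with equal numbers had correlations from -0.245 to 0.0398 over genes. The labels name no litter, so whether the numbers pair embryos cannot be told from these correlations.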

Other observations

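Other tail bud and presomitic genes shared with Cdx2 and Cdx4 the split in which the 4 embryos that had Xist lay above all the rest, though the order within the 4 differed. These were 3 of 16 tail bud genes (Evx1, Fgf17 and Wnt5b), 3 of 13 presomitic genes (Tbx6, Dusp4 and Cited1) and 1 of 21 genes of the Lin28 and let-7 list (Mycn), but 0 of 15 trunk Hox and 0 of 9 tail Hox genes, where 1.38% of all genes tested did so. Tbx6, the T-box factor that commits cells to paraxial mesoderm, had 16.6, 19.5, 30.2 and 20.5 TPM in mutants 2 and 4 and WT 1 and 3, against 3.65, 15.7, 15.1 and 13.3 TPM in mutants 1 and 3 and WT 2 and 4. Evx1 was at 11.7, 20.4, 15.6 and 13.6 TPM in the first 4 and at 5.58, 10.9, 7.45 and 7.41 TPM in the other 4. The genes named here were chosen after their values were seen, and no test was made of this split.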
